A study of Mus musculus with 6 samples.

Results

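The osteogenic and calvarial transcription factors Runx2, Sp7, Dlx3, Dlx5, Msx1, Msx2, Twist1, Alx4 and Sox9 were followed in osteoblasts grown from mouse skull bone. These 9 genes were taken by symbol from the 17830 genes of the count table, by their known roles in bone and skull formation, and each had 1 entry. The cells came from male mice aged 6 months (the study's methods), and each of the 6 libraries holds the RNA of 1 sample, with 3 samples per genotype. Control mice were mOCN-Cre;Ai9. In them the Cre recombinase is translated from the endogenous Bglap locus, which encodes osteocalcin, so Cre marks mature osteoblasts, and the Ai9 allele gives tdTomato fluorescence in every cell that has had Cre. TgAPPswe mOCN-Cre;Ai9 mice, called APPswe below, carried both of these alleles and, in addition, a transgene for human APP with the Swedish mutation. It stands under the CAG promoter behind a stop cassette that Cre removes. All samples were outgrowths of cleaned calvarial bone chips kept for weeks in medium with ascorbate phosphate and beta-glycerophosphate, then sorted for tdTomato by flow cytometry. On this description the values are those of cultured cells and not of bone as it was taken. The paper's passages on the RNA sequencing speak of tdTomato-positive osteoblasts sorted from the skulls and name no culture step there. Nothing in the labels says how many animals were behind a sample, so the p-values below measure the spread between these samples, which may be technical.

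The skull vault forms by direct ossification of mesenchyme that comes from neural crest and mesoderm. RUNX2 commits mesenchymal cells to the osteoblast lineage and SP7 (osterix) acts downstream of it, and without either factor bone does not form. DLX and MSX homeodomain proteins recognise similar TAAT-containing sites and often act in opposite directions on bone genes, while TWIST1 binds RUNX2 and restrains it. Changes in the human TWIST1, MSX2 and ALX4 genes cause early fusion of the skull sutures or openings in the parietal bones. SOX9 drives cartilage formation and can repress RUNX2 activity.

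Promoter sequence was at hand for 4 of the 9 genes, Runx2, Msx1, Msx2 and Twist1, from RefSeq on GRCm38.p6. The windows below are the 250 bases before the start of Msx1 and Msx2, the paralogues whose estimates had opposite signs in these libraries. With all libraries neither of these estimates passed the test described below. The windows lie at chr5:37824586-37824835 and chr13:53472781-53473030, both on the minus strand. Capitals mark the letters ACCACA (the core read by RUNX proteins), TAATTA (a core read by many homeodomain proteins), CCAAT and TATAAA, each searched on both strands.
Msx1: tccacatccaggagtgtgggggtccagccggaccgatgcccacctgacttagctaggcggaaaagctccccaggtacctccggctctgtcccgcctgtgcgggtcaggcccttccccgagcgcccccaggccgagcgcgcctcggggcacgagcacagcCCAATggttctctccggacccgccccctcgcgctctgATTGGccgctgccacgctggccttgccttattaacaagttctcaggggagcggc
Msx2: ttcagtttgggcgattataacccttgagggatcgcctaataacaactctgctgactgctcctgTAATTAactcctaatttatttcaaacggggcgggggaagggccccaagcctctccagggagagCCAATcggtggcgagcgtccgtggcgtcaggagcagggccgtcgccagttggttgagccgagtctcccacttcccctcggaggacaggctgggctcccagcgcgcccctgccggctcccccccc
For Runx2 the start used by the promoter table lies inside the span of the gene given below, so its window overlaps longer transcripts, and only short stretches on both sides of that start are shown, because they hold the RUNX core in the gene for a RUNX factor. They lie at chr17:44814699-44814711, with 1 core, and chr17:44814588-44814608, with 2 cores, on the minus strand.
Runx2 before the start: acaaACCACAtga
Runx2 after the start: aacaACCACAgaACCACAagt
The Msx2 window had 1 TAATTA core, which the Msx1 window lacked, while CCAAT occurred at 2 places in the Msx1 window and 1 in the Msx2 window. Among 32851 promoters of the same table, the 250 upstream bases held ACCACA in 14%, TAATTA in 4.84%, CCAAT in 33.8% and TATAAA in 12.4%. A match describes letters only and is no evidence of binding.

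Depth was even, with 17649704 to 18398392 counts in control and 17263757 to 17555489 in APPswe libraries, so that 3 counts, taken as the floor, equal 0.167 to 0.173 CPM (counts scaled to a common size after edgeR's TMM normalization). A level written with ± is the mean and the SD over the 3 libraries of a genotype (n = 3). Control replicate 2, whose library name has an S where the other names have an L (meaning not given), stood apart from every other library. It held 1 count of Bglap, the gene that drives the Cre, against 115 to 204 elsewhere, and the median level of 12 osteoblast markers was 1.18 CPM in it and 19.5 to 23.4 CPM in the other 5 libraries, although the summed level of these markers, mostly type I collagen, was 11747 CPM in it and 9296 to 10282 CPM in the others. It also held 2 counts over 4 Y-linked genes, where the other libraries held 2257 to 3406, which goes against its description as male. The 10 proliferation markers summed to 1076 CPM in it and to 437 to 460 CPM in the other libraries. Results are therefore given with and without control replicate 2. APPswe replicates 2 and 3 were closer to each other than any other pair of libraries, with a chi-square per degree of freedom of 1.58 against 6.25 between control replicates 1 and 3. They were kept as separate samples, as labelled. A value above 1 means only more difference than counting error, so it cannot tell separate samples from repeat libraries of 1 sample. Results with these 2 libraries summed are therefore given as well. Markers of other cells were present. Of 13 macrophage markers the summed level, mostly Lyz2, was 16040 to 21920 CPM in control and 11178 to 12017 CPM in APPswe, and 10 muscle markers summed to 2.60 to 10.6 CPM in control and 150 to 153 CPM in APPswe. The 8 osteoclast markers summed to 158 to 290 CPM in control and 719 to 731 CPM in APPswe, the 10 fibroblast markers to 1830 to 3500 CPM and 5916 to 6083 CPM, and the 10 endothelial markers to 84.1 to 300 CPM and 29.5 to 32.6 CPM. Of osteocyte genes, Mepe and Sost were at 0 to 3 counts in every library, and Dmp1 had 261, 2 and 254 counts in control and 12, 16 and 14 in APPswe. The part of these other cells in the differences below was not tested, and in bulk RNA fewer cells of a type and less RNA per cell cannot be told apart.

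The comparison of APPswe with control asks whether the transgene in osteoblasts went with a change in the factors that set osteoblast and suture identity. Runx2 and Sp7 rose in APPswe and Alx4 fell. Sp7 was 3.95-fold and Runx2 1.54-fold as high as in control, and Alx4 was at 0.301 of its control level. In the quasi-likelihood test of edgeR, adjusted by Benjamini-Hochberg over 13484 genes, all 9 factors were tested, and 2 were higher and 1 was lower at an adjusted p of at most 0.05, where 22.5% of all genes passed (10.5% higher, 12.0% lower). Sp7 was higher and Alx4 lower with a change of at least 1 on the log2 scale as well, which is what "called" means here, against 7.34% of all genes (3.74% higher, 3.60% lower). The groups did not overlap for 6 factors, 4 higher (Runx2, Sp7, Dlx5, Sox9) and 2 lower (Msx2, Alx4), where this was so for 45.0% of all genes (22.8% higher, 22.2% lower). The median log2 fold change of the 9 factors was 0.33, beside -0.0033 for all genes tested. With APPswe replicates 2 and 3 summed into 1 sample, none of these 3 factors passed, at adjusted p of 0.124 for Runx2, 0.0803 for Sp7 and 0.126 for Alx4, and without control replicate 2 as well they were 0.000106, 1.34e-05 and 0.000285.

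Without control replicate 2, 7 of the 9 factors passed, 4 higher (Runx2, Sp7, Dlx5, Sox9) and 3 lower (Dlx3, Msx2, Alx4), at a background of 48.3%. Sp7 and Sox9 were then called higher and Alx4 lower, at a background of 11.5% (4.87% higher, 6.58% lower), and the median log2 fold change of the 9 was 0.19. Msx1 and Twist1 did not pass with or without this library. The direction of all 9 was the same in both fits, which share every library but that one.

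**Figure D1:**
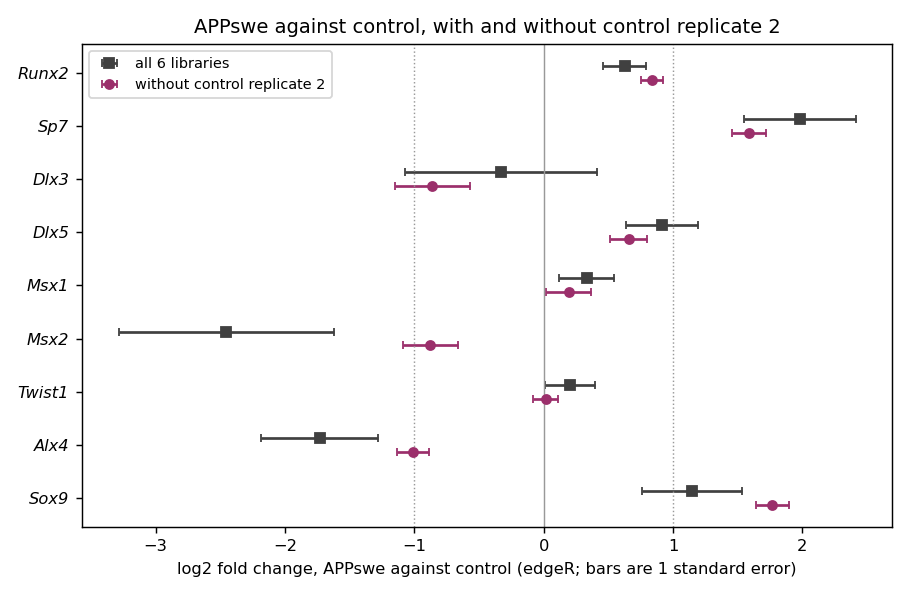
Log2 fold change of APPswe over control for the 9 transcription factors, with all 6 libraries and without control replicate 2. Points are estimates of the edgeR fit and bars are 1 standard error. Leaving the library out shortened the bars and drew Msx2 from -2.45 to -0.88 and Alx4 from -1.73 to -1.01, while Sox9 went from 1.15 to 1.77.

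Runx2, the gene for the factor that commits cells to the osteoblast lineage, lies at chr17:44495987-44814797 on the minus strand. It had 344, 497 and 324 counts in control and 589, 618 and 617 counts in APPswe replicates 1 to 3. Every APPswe library was above every control library, and control replicate 2 was the highest of the controls. The mean level was 22.0 ± 5.18 CPM in control and 34.0 ± 0.890 CPM in APPswe. Runx2 rose by a log2 fold change of 0.63 (SE 0.16, adjusted p = 0.0374, edgeR), and by 0.84 (SE 0.085, adjusted p = 1.72e-05) without control replicate 2. With all controls Runx2 no longer passed when any other library was left out: the adjusted p was 0.105 without control replicate 1, 0.0890 without control replicate 3, and 0.107, 0.129 and 0.128 without APPswe replicates 1, 2 and 3. The antisense transcript Runx2os1 shares 519 exon bases with Runx2 in GENCODE M21, and whether reads were counted by strand is not given in the sources used here.

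Sp7 encodes osterix, the zinc finger factor required after Runx2 for osteoblast maturation, and lies at chr15:102356603-102367035 on the minus strand. Its counts were 103, 33 and 126 in control and 312, 381 and 360 in APPswe. The groups did not overlap, and control replicate 2 was the lowest library for Sp7 where it was the highest control for Runx2. Sp7 rose from 4.97 ± 2.76 CPM to 19.6 ± 1.93 CPM. Its log2 fold change was 1.98 (SE 0.43, adjusted p = 0.0205, edgeR). The same estimate was 1.59 (SE 0.13, adjusted p = 3.69e-06) without control replicate 2. Against controls 1 and 3 alone, which averaged 6.53 CPM, Sp7 had the second largest rise, after Sox9, where it had the largest with all controls. The adjusted p was 0.0507 without control replicate 1 and 0.0686, 0.0837 and 0.0802 without APPswe replicates 1, 2 and 3, so the call was lost. The estimates in these fits were 2.13, 2.06, 1.93 and 1.96, close to that of all libraries. Fewer of all genes passed in them as well, 2010, 1373, 1042 and 1024, beside 3036 with all 6 libraries.

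**Figure D2:**
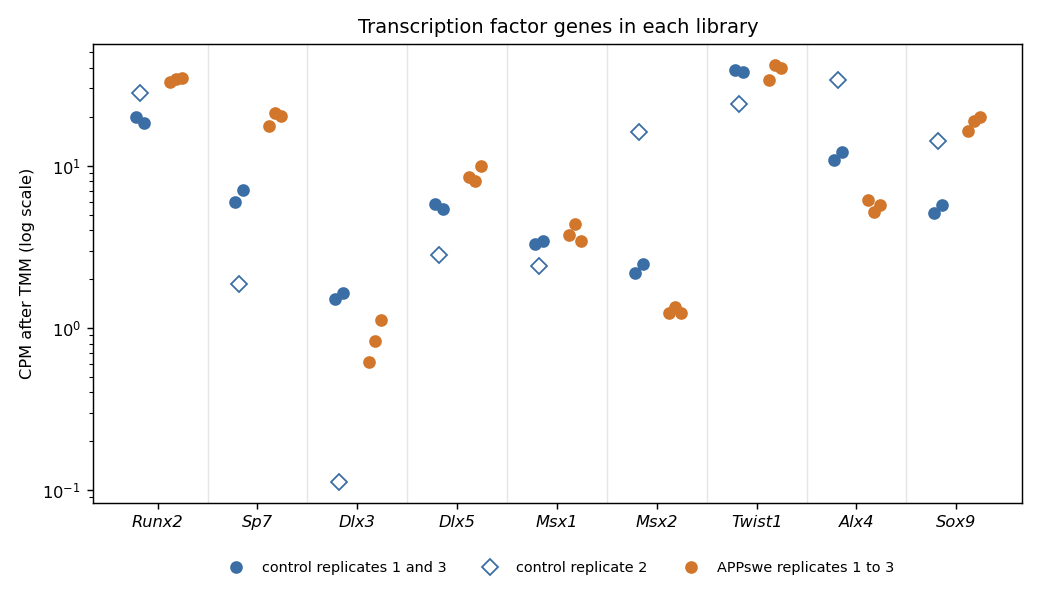
Level of each transcription factor in CPM (log axis) in the 3 control and 3 APPswe libraries, with control replicate 2 marked. Control replicate 2 lies far above the other controls for Msx2, Alx4 and Sox9 and far below them for Sp7 and Dlx3, while the 3 APPswe libraries lie close together.

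The Dlx genes encode distal-less homeodomain factors that activate bone genes, Dlx5 early and Dlx3 later in the lineage. Dlx5, at chr6:6877801-6882068 on the minus strand, had 100, 50 and 96 counts in control and 151, 144 and 177 counts in APPswe. All APPswe libraries were above all controls, and control replicate 2 had the fewest. Its level was 4.67 ± 1.62 CPM in control and 8.81 ± 1.01 CPM in APPswe, with a log2 fold change of 0.92 (SE 0.28) that missed the threshold at an adjusted p of 0.0576 in edgeR's test. Without control replicate 2 Dlx5 was higher by 0.66 (SE 0.14, adjusted p = 0.00302).

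Dlx3, at chr11:95120117-95125296 on the plus strand, was the least abundant of the 9 per length. Its counts were 26, 2 and 29 in control and 11, 15 and 20 in APPswe. The groups overlapped, since control replicate 2 held 2 counts, under the floor of 3, and the other controls were above all APPswe libraries. The log2 fold change was -0.33 (SE 0.74, adjusted p = 0.783, edgeR) with all libraries, and -0.86 (SE 0.29, adjusted p = 0.0307) without control replicate 2. Dlx3 and Dlx5, 2 activators of one family, thus had estimates of opposite sign, and at these counts the direction for Dlx3 turned to 0.090 when control replicate 3 was left out. The other Dlx genes had low counts. Dlx1 (21, 59 and 16 counts in control, 42, 42 and 45 in APPswe), Dlx2 (24, 46 and 33, then 42, 65 and 71) and Dlx6 (25, 9 and 19, then 28, 25 and 22) did not pass, with adjusted p of 0.571, 0.127 and 0.413 in edgeR's test. When control replicate 2 was left out, Dlx1 was called higher by 1.19 (adjusted p = 0.00188) and Dlx2 by 1.03 (adjusted p = 0.00946), and Dlx6 was at 0.16 (adjusted p = 0.644). Dlx4, with 15, 0 and 14 counts in control and 7, 7 and 5 in APPswe, was below the filter on low counts, and was called lower by -1.20 (adjusted p = 0.0180) without control replicate 2.

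Msx1 and Msx2 encode muscle-segment homeobox repressors of the suture mesenchyme and of early bone cells. Msx1, at chr5:37820491-37824585 on the minus strand, had 57, 43 and 61 counts in control and 67, 78 and 61 counts in APPswe. The groups overlapped by a small margin, at 3.44 CPM in control replicate 3 and 3.43 CPM in APPswe replicate 3. The log2 fold change was 0.33 (SE 0.21, adjusted p = 0.296, edgeR), and 0.19 (SE 0.17, adjusted p = 0.380) without control replicate 2. Msx1 had the smallest spread of the 9 in control, 0.49 on the log2 scale from the lowest to the highest library.

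Msx2, at chr13:53466881-53472780 on the minus strand, had 38, 289 and 44 counts in control and 22, 24 and 22 counts in APPswe. Control replicate 2 was 6.95-fold above the mean of the other controls, and every APPswe library was below every control. The level was 6.97 ± 8.03 CPM in control and 1.27 ± 0.0591 CPM in APPswe, an SD larger than the mean in control. The log2 fold change of -2.45 (SE 0.83) was the largest in size of the 9 and did not pass (adjusted p = 0.0783, edgeR). Without control replicate 2 Msx2 was lower by a log2 fold change of -0.88 (SE 0.21, adjusted p = 0.00641), between a mean of 2.34 CPM in the controls and the same APPswe libraries. The lower level of Msx2 was thus seen with either set of controls, and its size depended on that library.

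Alx4 encodes an aristaless-like homeodomain factor of the skull vault and lies at chr2:93642434-93681341 on the plus strand. Its counts were 188, 598 and 214 in control and 109, 93 and 102 in APPswe. The groups did not overlap, and control replicate 2 was 2.93-fold above the mean of the other controls. Alx4 fell from 18.8 ± 12.8 CPM in control to 5.67 ± 0.468 CPM in APPswe, by -1.73 on the log2 scale (SE 0.45, adjusted p = 0.0362, edgeR). Without control replicate 2 the fall was -1.01 (SE 0.13, adjusted p = 7.52e-05), just past the fold limit. The adjusted p was 0.118, 0.135 and 0.124 without APPswe replicates 1, 2 and 3. Alx1, a gene of the same family, had 2, 75 and 5 counts in control and 0, 1 and 3 in APPswe, was below the filter on low counts, and was highest in control replicate 2.

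Twist1, a basic helix-loop-helix factor that keeps suture cells from ossifying, lies at chr12:33957671-33959831 on the plus strand. It had 672, 429 and 669 counts in control and 604, 752 and 715 counts in APPswe. The groups overlapped, with control replicate 2 the lowest and the other controls inside the range of APPswe. The level was 33.6 ± 8.20 CPM in control and 38.6 ± 4.23 CPM in APPswe. The log2 fold change was 0.20 (SE 0.19, adjusted p = 0.482, edgeR), and 0.02 (SE 0.097, adjusted p = 0.898) without control replicate 2. Between control replicates 1 and 3 Twist1 differed by 0.039 on the log2 scale, the least of the 9. Twist2, its close relative, had 103, 22 and 115 counts in control and 102, 113 and 128 in APPswe, with a log2 fold change of 0.49 that did not pass (adjusted p = 0.539, edgeR).

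Sox9, which encodes the factor that drives cartilage formation, lies at chr11:112782210-112787757 on the plus strand. It had 89, 252 and 101 counts in control and 293, 341 and 355 counts in APPswe. Every APPswe library was above every control, with control replicate 2 between the other controls and the APPswe libraries. The level was 8.33 ± 5.06 CPM in control and 18.5 ± 1.82 CPM in APPswe, and the log2 fold change of 1.15 (SE 0.39) missed the threshold at an adjusted p of 0.0762 in edgeR's test. Without control replicate 2 Sox9 was higher by 1.77 (SE 0.13, adjusted p = 1.61e-06), the largest rise of the 9 in that fit. Sox9 is thus called without that library and not with it.

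Per transcript length, in the authors' FPKM (fragments scaled to transcript length and library size), Twist1 was the most abundant of the 9 in every library. It stood at 23.8 ± 5.77 FPKM in control and 28.9 ± 2.92 FPKM in APPswe, above 72.0% and 76.0% of the genes tested. In APPswe the order went on with Dlx5 (7.96 ± 0.836 FPKM), Sp7 (7.43 ± 0.673), Runx2 (6.26 ± 0.0929), Sox9 (4.86 ± 0.441), Msx1 (2.36 ± 0.286), Alx4 (1.18 ± 0.105), Msx2 (0.683 ± 0.0321) and Dlx3 (0.373 ± 0.111). Only Dlx5 and Sp7 overlapped as neighbours in that order. In control Dlx5 (4.01 ± 1.40 FPKM), Runx2 (3.86 ± 0.905), Alx4 (3.72 ± 2.55), Msx2 (3.58 ± 4.13), Sox9 (2.09 ± 1.28), Sp7 (1.79 ± 0.985) and Msx1 (1.77 ± 0.317) followed Twist1, each overlapping its neighbour, and Dlx3 was last at 0.450 ± 0.347. Over control replicates 1 and 3 alone the order was Twist1 (27.1 FPKM), Dlx5 (4.82), Runx2 (3.35), Sp7 (2.35), Alx4 (2.25), Msx1 (1.96), Sox9 (1.36), Msx2 (1.20) and Dlx3 (0.650). Sp7 and Sox9 therefore stood higher in the APPswe order, and Alx4 lower. Summed over the 9 genes the level was 45.4, 45.2 and 44.6 FPKM in control and 55.2, 62.5 and 62.2 FPKM in APPswe, so the makeup of the sum differed in control replicate 2 while its total did not stand out. Twist1 made up 60.8%, 38.0% and 59.6% of that sum in control and 46.4%, 49.9% and 48.0% in APPswe.

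**Figure D3:**
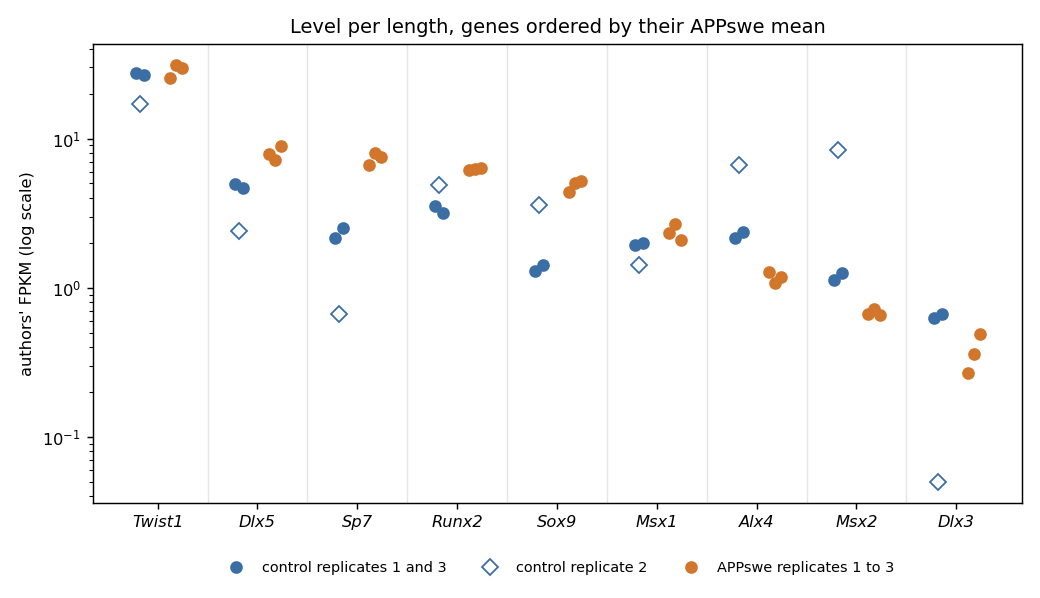
FPKM of the 9 transcription factors per library (log axis), ordered by their mean in APPswe, with control replicate 2 marked. Twist1 is at the top of every library, between 17.2 and 31.2 FPKM, and Dlx3 at the bottom, between 0.05 and 0.67 FPKM.

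Ratios of 2 factors within a library do not depend on how libraries are scaled. Of 5 pairs, set by family or by lineage, the counts of Runx2 over Sp7 gave log2 ratios of 1.73, 3.89 and 1.36 in control and 0.92, 0.70 and 0.78 in APPswe. The ratio was lower in all APPswe libraries, by 1.53 on average, which means that Sp7 was higher relative to Runx2. The log2 ratio of Msx1 over Msx2 was 0.58, -2.73 and 0.47 in control and 1.58, 1.68 and 1.45 in APPswe. Here Msx2 exceeded Msx1 in control replicate 2 alone, and all APPswe ratios were above all control ratios, by 2.13 on average. With 3 against 3 libraries, the smallest p of the two-sided exact permutation test is 0.1, so no pair could reach 0.05, and both of these pairs had an exact p of 0.1 (adjusted p = 0.25 over the 5 pairs). Runx2 over Sox9 differed by -0.65 (exact p = 0.2, adjusted 0.333), Runx2 over Twist1 by 0.42 (exact p = 0.4) and Dlx3 over Dlx5 by -0.70 (exact p = 0.4), each with overlapping groups. Without control replicate 2 the differences were -0.75 for Runx2 over Sp7, 1.05 for Msx1 over Msx2, -0.92 for Runx2 over Sox9, 0.83 for Runx2 over Twist1 and -1.54 for Dlx3 over Dlx5.

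**Figure D4:**
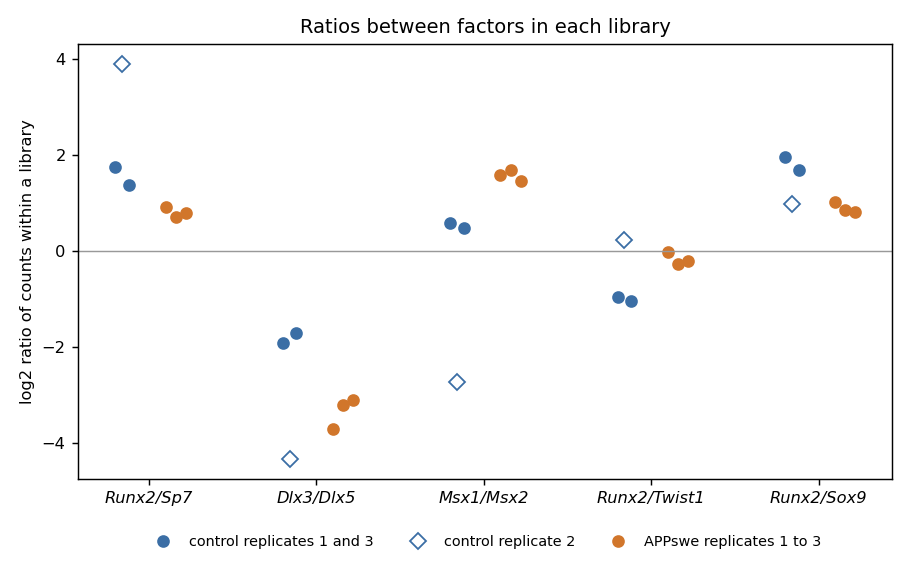
Log2 ratio of counts between 2 transcription factors within each library, for 5 pairs, with the libraries as points and control replicate 2 as an open diamond. Control replicate 2 lies apart from the other controls for each pair and is at -2.73 for Msx1 over Msx2, where the other controls are at 0.58 and 0.47.

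Each of the 9 factors spread more between control libraries than the median gene did. That median covers genes of every level and was not matched to the factors. By FPKM in control, every factor but Twist1 stood above at most 29.6% of the genes tested. From the lowest to the highest control the range on the log2 scale ran from 0.49 (Msx1) to 2.96 (Dlx3), where the median of all genes tested was 0.37. Between control replicates 1 and 3 it was 0.039 to 0.25, beside a median of 0.12, and among APPswe libraries 0.070 to 0.76, beside 0.19. Against the mean of the other controls, 3 factors were at least 2-fold higher in control replicate 2 (Msx2, Alx4, Sox9) and 2 were at least 2-fold lower (Sp7, Dlx3), where 4.44% and 8.46% of all genes were. Dlx5 was at 0.502 of the mean of the other controls, just inside that limit, Twist1 at 0.630, Msx1 at 0.718 and Runx2 at 1.46. In the library with 1 count of Bglap, Msx2, Alx4 and Sox9 were thus high and Sp7 and Dlx3 low, and no other library had this pattern.

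The genes whose profile over the 6 libraries was most like each factor were found by the root mean square difference of centred log2 CPM, among 12215 genes, as a description. Runx2 was nearest to Dennd4a (0.0427), Sp7 to Lgi2 (0.0665), Dlx5 to Pyroxd2 (0.0810) and then Bambi (0.0886), Twist1 to Traf1 (0.0400), and Msx1 to Apopt1 (0.0686). Msx2 was nearest to Irx1 (0.119), Alx4 to Oas1a (0.113), Sox9 to Itgal (0.0931) and Dlx3 to Pgm5 (0.132). Among the 9 themselves, Msx1 and Twist1 were closest (0.144), Msx2 and Alx4 were at 0.426, and Sp7 and Msx2 were farthest apart (2.46). All of these values share the same 6 libraries, control replicate 2 included. After Itgal, the genes nearest to Sox9 were Sirpb1b (0.128) and Dcstamp (0.135), a fusion gene of osteoclasts and 1 of the 8 osteoclast markers. Dcstamp was at 4.02 ± 2.42 CPM in control and 8.59 ± 0.805 CPM in APPswe, a small part of the sum of those markers. It did not pass with all libraries (adjusted p = 0.0887, edgeR) and was higher by 1.71 without control replicate 2.

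Of 60 related regulators of bone, suture and cartilage cells, 52 were tested and 14 were higher and 1 lower at an adjusted p of at most 0.05 in edgeR's test, beside 10.5% and 12.0% of all genes. Their median log2 fold change was 0.30, and without control replicate 2 the counts were 26 higher and 10 lower of 54, beside 23.3% and 25.0%. With all libraries 3 of the 52 were called higher and 1 lower, beside 3.74% and 3.60% of all genes, so the calls were few and not far from that background. Called higher were Sox8, a relative of Sox9, with 5, 5 and 7 counts in control and 21, 19 and 26 in APPswe (log2 fold change 1.91, SE 0.31, adjusted p = 0.00774), Sox11, of the SoxC group, with 25, 22 and 17, then 71, 91 and 66 (1.80, SE 0.25, adjusted p = 0.00422), and Snai1, a repressor of epithelial genes, with 281, 379 and 361, then 815, 1087 and 1097 (1.54, SE 0.16, adjusted p = 0.00171). Sox6, which acts with Sox9 in cartilage, was called lower, with 95, 154 and 112 counts in control and 55, 55 and 34 in APPswe (-1.34, SE 0.27, adjusted p = 0.0161). Sox11 and Snai1 passed whichever library was left out, Sox8 passed in 5 of 6 such fits (up to 0.0579, without APPswe replicate 3), and Sox6 in 3 of 6 (up to 0.0630, without that same library). Sox5, the other partner of Sox9, had 24, 6 and 32 counts in control and 16, 17 and 16 in APPswe and did not pass (adjusted p = 0.669), while it was lower by -0.80 without control replicate 2 (adjusted p = 0.0258). Gli2, an effector of hedgehog signalling, rose by 0.94 (adjusted p = 0.0459) and passed in 1 of 6 fits without 1 library, with up to 0.165 without APPswe replicate 2.

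Of the partners of Runx2, Runx1 rose from 73.4 ± 5.45 CPM to 93.3 ± 2.17 CPM, by 0.35 on the log2 scale (SE 0.079, adjusted p = 0.0242, edgeR). It passed in 2 of 6 fits with 1 library left out, with an adjusted p of up to 0.0975 (without APPswe replicate 3). Runx3 (0.58, adjusted p = 0.0906) and Cbfb (0.18, adjusted p = 0.295), the common cofactor of RUNX proteins, did not pass. Both were higher without control replicate 2, Runx3 by 0.83 (adjusted p = 0.000267) and Cbfb by 0.26 (adjusted p = 0.0374). Runx1 is also a factor of blood cells. The summed macrophage markers, mostly Lyz2, were lower and the summed osteoclast markers higher in APPswe. Of the 13 macrophage markers, 6 passed lower and 1, Aif1, passed higher in edgeR's test. Beside this, 12.0% and 10.5% of all genes passed. The part of macrophages and osteoclasts in the Runx1 values was not tested.

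**Figure D5:**
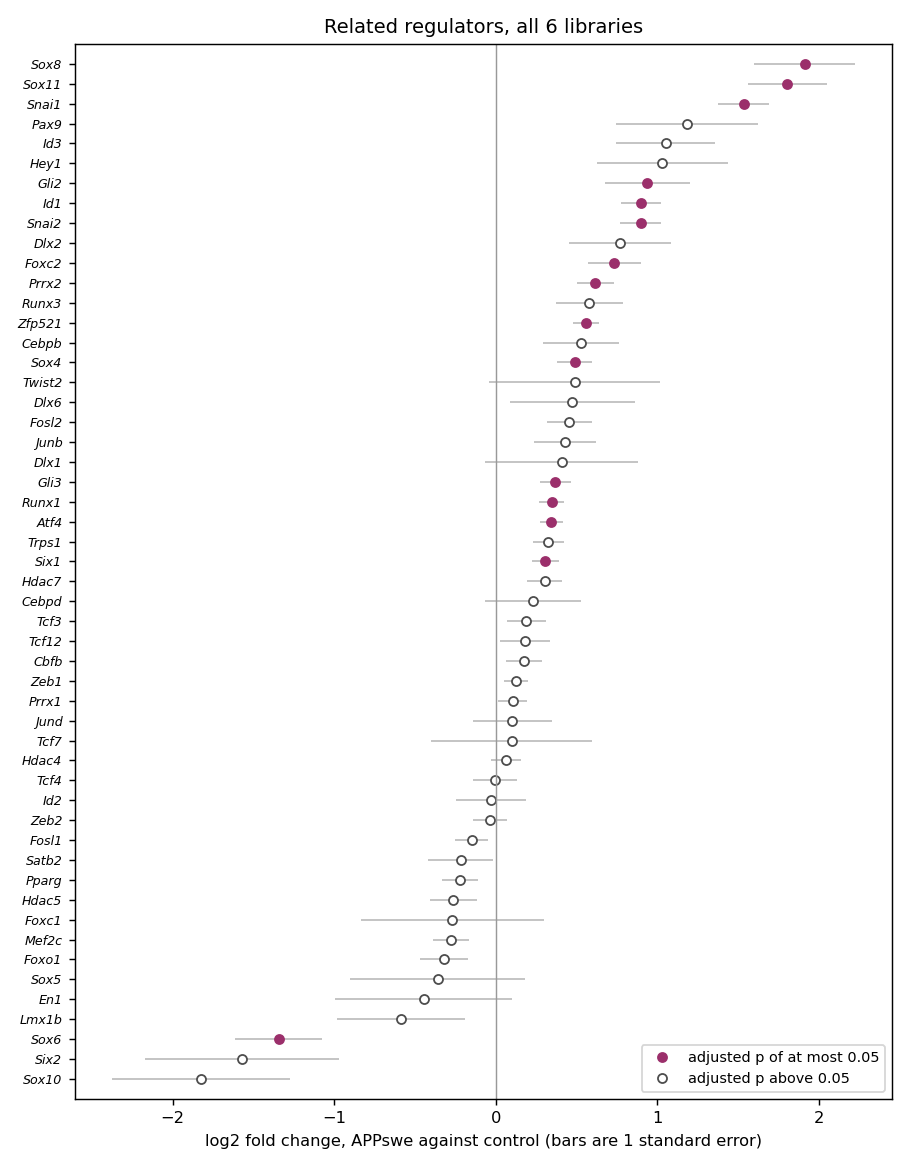
Log2 fold change of APPswe over control for the 52 related regulators that were tested, with points filled where the test was passed and bars of 1 standard error. Sox8 at 1.91, Sox11 at 1.80 and Snai1 at 1.54 were called higher and Sox6 at -1.34 was called lower, where 3.74% and 3.60% of all genes were.

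Among 24 targets of Runx2 and Sp7 and bone genes, 22 were tested, and 4 were higher and 1 lower at an adjusted p of at most 0.05, beside 10.5% and 12.0% of all genes. Their median log2 fold change was 0.21. It was -0.09 without control replicate 2, and 9 were higher and 8 lower, beside 23.3% and 25.0%, with 2 called higher and 5 called lower, beside 4.87% and 6.58%. Tnfsf11, which encodes the osteoclast-inducing ligand RANKL, had 20, 22 and 30 counts in control and 149, 138 and 157 in APPswe (log2 fold change 2.60, SE 0.20, adjusted p = 0.000811, edgeR). Sparc, for the matrix protein osteonectin, rose from 2643 ± 262 CPM to 4869 ± 129 CPM (0.88, adjusted p = 0.00192), and the fibrillar collagen gene Col5a1 rose by 0.70 (adjusted p = 0.0217). Fgfr3, a growth factor receptor of bone and cartilage, had 29, 16 and 36 counts in control and 69, 86 and 76 in APPswe (1.49, SE 0.31, adjusted p = 0.0182). Spp1, for osteopontin, fell from 8171 ± 1800 CPM in control to 3569 ± 112 CPM in APPswe, by -1.19 on the log2 scale (SE 0.17, adjusted p = 0.00466). Tnfsf11, Sparc and Spp1 passed whichever library was left out, while Fgfr3 passed in 3 of 6 such fits and Col5a1 in 1 of 6, with up to 0.0866 and 0.0920 without APPswe replicate 2. The genes Bglap, Ibsp, Alpl and Dmp1, of mature osteoblasts and osteocytes, did not pass with all libraries. Bglap had 159, 1 and 204 counts in control and 115, 128 and 159 in APPswe, Ibsp 1468, 3 and 1371, then 985, 943 and 940, and Alpl 752, 35 and 774, then 1332, 1295 and 1357. Their adjusted p was 0.945, 0.994 and 0.291 in edgeR's test, and that of Dmp1, a matrix protein gene of osteocytes, was 0.0804 at a log2 fold change of -3.64. In the fit without control replicate 2, Dmp1 was lower by -4.21 (adjusted p = 1.44e-08), Phex, for a phosphate-regulating endopeptidase, by -1.27, Mmp13, for a collagenase, by -1.22, Bglap2 by -1.12, Ibsp by -0.60 and Bglap by -0.46, while Alpl was higher by 0.77, and all of these passed in that fit.

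Of 16 cartilage targets of Sox9, 9 were tested and 3 were higher and 0 lower at an adjusted p of at most 0.05 in edgeR's test, beside 10.5% and 12.0% of all genes. At an unadjusted p under 0.05 there were 3 of the 9 in either direction, and DESeq2 called 0 lower. Their median log2 fold change was 0.61, and 0.24 without control replicate 2, when 5 of 10 were higher and 1 lower, beside 23.3% and 25.0%. Acan, for the cartilage proteoglycan aggrecan, had 8, 0 and 11 counts in control and 72, 69 and 65 in APPswe (log2 fold change 3.39, SE 0.68, adjusted p = 0.0158). Col9a2 had 7, 0 and 2 counts in control and 19, 22 and 19 in APPswe (2.66, SE 0.72, adjusted p = 0.0404), and Col11a1 rose from 65.9 ± 2.73 CPM to 113 ± 3.81 CPM (0.78, SE 0.070, adjusted p = 0.00110). Col11a1 passed whichever library was left out, while Acan passed in 3 of 6 such fits and Col9a2 in 2 of 6, with up to 0.0756 and 0.147 without APPswe replicate 2. Col2a1, the defining collagen of cartilage, had 326, 2877 and 328 counts in control and 449, 474 and 431 in APPswe, so that control replicate 2 was 8.66-fold above the mean of the other controls, and it did not pass at a log2 fold change of -1.39 (adjusted p = 0.274). Without that library the sign turned, and Col2a1 was higher by 0.44 (adjusted p = 0.00191). Snorc, Chad and Ihh, other genes of cartilage cells, were at 0 to 9 counts in every library. Others on the list had more. Comp had 4794, 117 and 5616 counts in control and 5933, 6521 and 6393 in APPswe (log2 fold change 0.81, adjusted p = 0.601), and Col10a1 had 90, 8 and 74, then 84, 93 and 90. Matn1, with 23, 5 and 26, then 3, 7 and 4 counts, was the gene called lower without control replicate 2 (-2.39, adjusted p = 0.000358). Col2a1, Bglap, Bglap2, Ibsp, Alpl, Dmp1, Phex, Mmp13, Snorc, Chad, Ihh, Comp, Col10a1 and Matn1 were picked from their lists after their values were seen.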

How the data were processed

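RNA of tdTomato-sorted calvarial osteoblast cultures was sequenced in 6 libraries, 3 per genotype. The deposited table holds read counts per gene, not normalized, and FPKM values that the authors computed and rounded, with blank cells read here as 0. GEO's processing notes name GRCm38, and the aligner and counting tool are not given in the sources used here. The authors' log2 fold changes and p-values in the table are their own comparison and were not used. Total counts were 17263757 to 18398392 per library. Floors of 3 counts cover counting error only.

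The counts were tested in R 4.3.3 with edgeR 4.0.16 (TMM, filterByExpr, quasi-likelihood test, genotype as the single term), with p-values adjusted by Benjamini-Hochberg over the 13484 genes kept. The standard error is the size of the log2 fold change over the square root of F. The code was tested on simulated data. DESeq2 1.42.0, limma 3.58.1 on log2(FPKM + 1) and log2(FPKM + 0.1), other filters, scalings, covariates and thresholds, and each library left out were alternatives. Summing APPswe replicates 2 and 3 was added after the data were seen. Ratios used counts plus 0.5. Positions are RefSeq on GRCm38.p6, overlaps GENCODE M21.

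The 9 factors, the gene lists and the cell markers were chosen with earlier results of these data known. Named beyond the 9 are, per list, up to 4 genes per direction with the largest change among those that passed, family partners, library markers, and the 3 nearest profiles per factor, of which the nearest and a few more are printed. The other genes named were picked after their values were seen.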

Additional observations from a re-analysis of the deposited data

How the results depend on the processing

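The direction of each factor was the same under all 20 alternatives, except Dlx3, at 0.084 with limma on log2(FPKM + 0.1) and from -0.86 to 0.090 with 1 library left out (0.090 without control replicate 3), and Twist1, at -0.021 with APPswe replicates 2 and 3 summed and control replicate 2 left out. An adjusted p of at most 0.05 was reached in 11 of the 20 for Runx2, 13 for Sp7, 10 for Alx4, 6 for Dlx5, 5 for Sox9, 3 for Msx2, 2 of 19 for Dlx3, and 0 for Msx1 and Twist1. Of the 20, 1 (no fold limit) is the main fit itself, so the passes of Runx2, Sp7 and Alx4 in it were fixed in advance. The test against a fold limit (glmTreat) also keeps the estimates of the main fit. The direction could not differ in these 2 settings. The deviations of same-numbered samples correlated at 0.0736, -0.0364 and 0.158. Control replicates 1 and 3 each correlated best with the APPswe replicate of the same number, and control replicate 2 with APPswe replicate 1. These correlations were low, so they cannot decide whether the replicate numbers pair the samples. With the replicate block the factors called were 0 higher and 0 lower, in place of 1 and 1, bone targets higher 1 in place of 2 and cartilage targets higher 0 in place of 2, and all genes called 384 higher and 324 lower in place of 504 and 486. With 1 library left out, the factors called were 0 to 2 higher and 0 to 1 lower, the related regulators 2 to 5 higher and 0 to 3 lower (3 and 1 with all), the bone targets 1 to 2 higher and 1 to 5 lower (2 and 1), the cartilage targets 0 to 2 higher and 0 to 1 lower (2 and 0), and all genes 281 to 670 higher and 230 to 905 lower. DESeq2 called 2 factors higher and 2 lower, 4 related regulators lower and 2 bone targets lower. Without TMM 5 related regulators were called higher. With at least 10 counts in every library 0 cartilage targets were called higher. A covariate for how the libraries were named left 0 factors lower and 1 cartilage target higher. Without the fold limit the numbers higher were 2 factors, 14 related regulators and 4 bone targets. With glmTreat, which tests against a limit of 1 on the log2 scale, the calls were 0 factors, 0 related regulators, 0 bone targets lower and 0 cartilage targets, and 1 bone target higher. On log2(FPKM + 1), limma called 0 factors lower, 0 related regulators lower, 1 bone target higher and 0 cartilage targets higher, and without a filter the same numbers and 1 related regulator higher. On log2(FPKM + 0.1) it called 3 factors higher and 0 lower. Summing APPswe replicates 2 and 3 called 0 factors either way, 0 related regulators lower, 1 bone target higher and 0 cartilage targets higher. With control replicate 2 also left out it called 2 factors higher and 0 lower, 3 related regulators lower, 5 bone targets lower and 1 cartilage target lower. All genes called were 296 higher and 240 lower with the sum and 644 and 924 with control replicate 2 also left out, 320 and 412 with at least 10 counts, 316 and 185 with limma, 305 and 170 without a filter and 147 and 72 with glmTreat. DESeq2 called 518 genes higher and 610 lower of 17368 tested. All genes called were 576 and 413 without TMM, 418 and 370 with the name covariate and 556 and 313 with limma on log2(FPKM + 0.1). Without the fold limit 1414 genes were higher and 1622 lower. The cause of these differences was not tested, and fewer samples and fewer genes were in the fits that left some out. Depth limits Dlx3, which had 2 to 29 counts per library.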

Other observations

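Among the 60 related regulators, control replicate 2 also stood apart for genes of skull and suture patterning that were picked after their values were seen. Zic1, a zinc finger gene of the skull mesenchyme, had 0, 100 and 0 counts in control and 1, 0 and 0 counts in APPswe. Six2, a homeobox gene of craniofacial mesenchyme, had 47, 226 and 60 counts in control and 38, 36 and 39 in APPswe, and En1, a homeobox gene of the calvarial mesenchyme, had 33, 152 and 46, then 62, 52 and 57. Foxc1, a forkhead gene needed for skull vault growth, went the other way, with 545, 92 and 498 counts in control and 297, 327 and 336 in APPswe. Foxc1 did not pass with all libraries (adjusted p = 0.768, edgeR's quasi-likelihood test) and was lower by -0.73 without control replicate 2. Sox10, a neural crest and glial gene, had 254, 62 and 308 counts in control and 50, 65 and 64 in APPswe. Its log2 fold change was -1.82 (SE 0.55, adjusted p = 0.0562, edgeR) with all libraries and -2.26 without control replicate 2. Whether these values share a source with the low Bglap count of that library was not tested.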
